A study of Mus musculus with 8 samples.

Results

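The NF-kappaB genes examined here were the 5 subunits Nfkb1, Nfkb2, Rel, Rela and Relb and the 5 inhibitors Nfkbia, Nfkbib, Nfkbie, Nfkbiz and Tnfaip3, chosen by name as 10 of the 30387 genes in the expression table. Each symbol had 1 row, and all 10 genes passed the filter on low values. RNA-seq was performed on primary white adipocytes isolated from the epididymal fat of WT littermates and of Ad-Yap/Taz-KO mice (floxed Yap and Taz alleles, Yap fl/fl and Taz fl/fl, with Adipoq-Cre), which lack the Hippo pathway effectors YAP and TAZ in adipocytes. Here the Cre recombinase is driven constitutively by the adiponectin promoter, which is active in adipocytes. Mice received normal chow (SD, labelled NC or normal) or a high-fat diet (HFD) for 4 weeks, starting at 5 weeks of age per the series' description and somewhat later per the study's methods, which gave the groups WT SD, KO SD, WT HFD and KO HFD with 2 libraries each. The comparisons address whether loss of YAP and TAZ and the diet go along with altered mRNA levels of the NF-kappaB system in these preparations. These mRNA levels do not measure the activity of the pathway. On the protein level, the paper saw no obvious change in P65 phosphorylation in fat lysates of Ad-Yap/Taz-KO mice on this HFD. It reported the same for the response of their isolated adipocytes to TNFα. Because the RNA comes from bulk cell preparations, fewer cells of a type and less RNA per cell cannot be told apart.

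NF-kappaB is a family of dimeric transcription factors. The subunits RelA, c-Rel and RelB carry a transactivation domain, whereas Nfkb1 and Nfkb2 encode the precursors p105 and p100, which are processed to the DNA-binding partners p50 and p52. In resting cells the dimers are held in the cytosol by inhibitors of the IkappaB family until the IkappaB kinase (IKK) complex marks the inhibitor for degradation. Several inhibitors and subunits are themselves transcribed in response to NF-kappaB, which forms feedback loops, and in adipose tissue the pathway is best known for its part in obesity-associated inflammation.

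Promoter sequences are shown first because part of the genes share a sequence feature that the choice of genes did not use. RefSeq windows on GRCm38.p6, from 250 bases before to 50 bases after a transcript start, were found for 7 of the 10 genes, with 10 windows in all (none for Nfkb1, Relb and Nfkbiz). The kappaB consensus, read on both strands as GGG, a purine, any pair of bases, a pair of pyrimidines and CC, had a match in windows of Nfkb2, Rel, Nfkbia, Nfkbie and Tnfaip3, or 5 of 7 genes, and had none in the windows of Rela and Nfkbib. Among all 32851 windows, 8.5% held a match, and among all 27025 genes with a window, 9.6% did. The windows of Nfkbia (chr12:55492598-55492897, minus strand), Nfkbie (chr17:45555450-45555749, plus strand), Rel (chr11:23770920-23771219, minus strand) and Tnfaip3 (chr10:19015361-19015660, minus strand, the first of 2 windows) are given 5′ to 3′ on the gene's own strand with the kappaB matches in capitals. The window of Rela (chr19:5637291-5637590, plus strand) is given as one without a match.
Nfkbia: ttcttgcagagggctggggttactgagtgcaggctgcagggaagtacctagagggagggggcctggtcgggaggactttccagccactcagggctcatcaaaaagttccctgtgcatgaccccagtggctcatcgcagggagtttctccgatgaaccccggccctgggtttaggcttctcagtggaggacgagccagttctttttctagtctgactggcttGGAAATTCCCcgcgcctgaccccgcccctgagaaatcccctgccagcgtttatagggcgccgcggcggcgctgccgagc
Nfkbie: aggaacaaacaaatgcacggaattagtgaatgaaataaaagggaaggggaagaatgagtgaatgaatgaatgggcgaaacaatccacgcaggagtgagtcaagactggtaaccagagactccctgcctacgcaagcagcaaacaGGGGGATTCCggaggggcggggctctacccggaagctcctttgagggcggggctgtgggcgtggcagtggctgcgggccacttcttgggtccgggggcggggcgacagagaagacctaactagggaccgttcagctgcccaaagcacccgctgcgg
Rel: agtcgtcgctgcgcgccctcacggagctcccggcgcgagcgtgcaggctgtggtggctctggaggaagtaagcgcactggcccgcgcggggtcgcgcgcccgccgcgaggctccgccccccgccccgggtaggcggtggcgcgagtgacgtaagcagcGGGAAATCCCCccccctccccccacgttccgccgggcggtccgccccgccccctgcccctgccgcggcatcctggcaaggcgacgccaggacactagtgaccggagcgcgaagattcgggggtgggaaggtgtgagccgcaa
Tnfaip3: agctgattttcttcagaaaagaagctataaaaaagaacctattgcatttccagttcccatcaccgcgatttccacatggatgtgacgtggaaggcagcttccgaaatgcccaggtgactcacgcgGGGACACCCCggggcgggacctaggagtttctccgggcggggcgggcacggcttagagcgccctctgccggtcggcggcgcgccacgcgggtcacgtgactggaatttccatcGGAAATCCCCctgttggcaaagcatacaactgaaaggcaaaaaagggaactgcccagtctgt
Rela: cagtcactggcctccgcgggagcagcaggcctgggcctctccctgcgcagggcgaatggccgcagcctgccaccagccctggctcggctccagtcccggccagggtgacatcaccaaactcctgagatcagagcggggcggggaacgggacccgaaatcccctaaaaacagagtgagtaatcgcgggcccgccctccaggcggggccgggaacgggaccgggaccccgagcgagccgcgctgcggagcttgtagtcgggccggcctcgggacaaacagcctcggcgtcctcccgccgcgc
Counted from the first base of the transcript as 0, the match in Nfkbia (GGAAATTCCC on the gene's strand) spanned positions -29 to -20 and the one in Nfkbie (GGGGGATTCC) positions -106 to -97. In Rel, the matches GGGAAATCCC and GGAAATCCCC overlapped and together covered -92 to -82. Tnfaip3 had GGGACACCCC at -125 to -116 and GGAAATCCCC at -12 to -3. In the first of its 3 windows, Nfkb2 had GGGAATTCCC at -39 to -30, overlapped by a second match shifted by 1 base, and GGGGCTTTCC at -11 to -2. The AP-1 motif (TGANTCA, both strands) had a match in windows of Nfkb2, Nfkbie and Tnfaip3, against 9.0% of all genes. The TEAD motif (CATTCC, both strands), the sequence read by the DNA-binding partners of YAP and TAZ, had a match for 1 of the 7 genes, in the second window of Nfkb2 where it overlapped a kappaB match, against 16.6% of all genes. These matches describe letters in short windows, and no binding was measured here.

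Before the results, the libraries were compared with their labels. Yap1 stood at 2333 to 2776 normalized counts in the 4 WT libraries and at 1549 to 2068 in the 4 KO libraries, and Wwtr1, which encodes TAZ, at 4743 to 7121 and at 1957 to 2707. Both were lower in every KO library and neither was near 0. The tables held the equivalent of 13.989 to 22.325 M reads on genes per library. The adipocyte markers, led by Fabp4, Plin1 and Adipoq, summed to 143619 to 332487 normalized counts in 7 libraries and to 78957 in KO HFD replicate 2. Among well-expressed genes, the 2 WT HFD libraries were closer to each other than other pairs. For genes with 1000 to 5000 normalized counts, their squared difference was 5.86 times that of Poisson counting, compared with 25.88 in WT SD, 56.5 in KO SD and 83.76 in KO HFD. For genes with 5 to 20 normalized counts, it was 4.72, compared with 4.63, 6.25 and 4.74. Scaling every library to the same total in place of the deposited scaling moved the median log2 fold change of all genes by 0.38 for KO against WT on HFD, by -0.40 for HFD against SD in WT and by 0.42 for the interaction. With it the higher genes made up 77.2% rather than 53.1% of the calls for KO against WT on HFD, 11.6% rather than 48.7% for HFD against SD in WT and 80.8% rather than 49.9% for the interaction.

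On a per-length scale (normalized counts per kb of exon), the inhibitors Nfkbia, Tnfaip3 and Nfkbiz were the most abundant of the 10 mRNAs in every group. Nfkbia, encoding IkappaB alpha, ranked first with 4662.7 to 8786.3 per kb across the 8 libraries. Tnfaip3, encoding the ubiquitin-editing enzyme A20, had 1548.6 to 3090.2 per kb and Nfkbiz, encoding the nuclear protein IkappaB zeta, 1271.4 to 2056.4. The order of these last 2 changed in WT HFD, where Nfkbiz (1599.8 and 1675.2) and Tnfaip3 (1548.6 and 1658.0) overlapped. Among the subunits Rela ranked highest in every group, with 613.9 to 753.6 per kb. After Rela, Nfkb2 followed with 332.9 to 598.8 per kb, Nfkb1 with 198.2 to 590.8, Rel with 140.9 to 389.5 and Relb with 134.9 to 197.7. The inhibitor Nfkbib had 201.5 to 321.8. Nfkb1 and Nfkb2 were level in KO HFD, at 570.1 and 590.8 against 560.6 and 598.8 per kb, but apart in WT HFD, at 203.2 and 198.2 against 337.0 and 332.9. Nfkbie, encoding IkappaB epsilon, was lowest of all in WT HFD with 42.7 and 46.3 per kb but lay above Nfkbib in KO HFD, with 322.2 and 297.9 against 283.1 and 263.7. Nfkbib and Rel overlapped in KO SD, at 258.2 and 321.8 against 372.0 and 254.6 per kb.

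**Figure D1:**
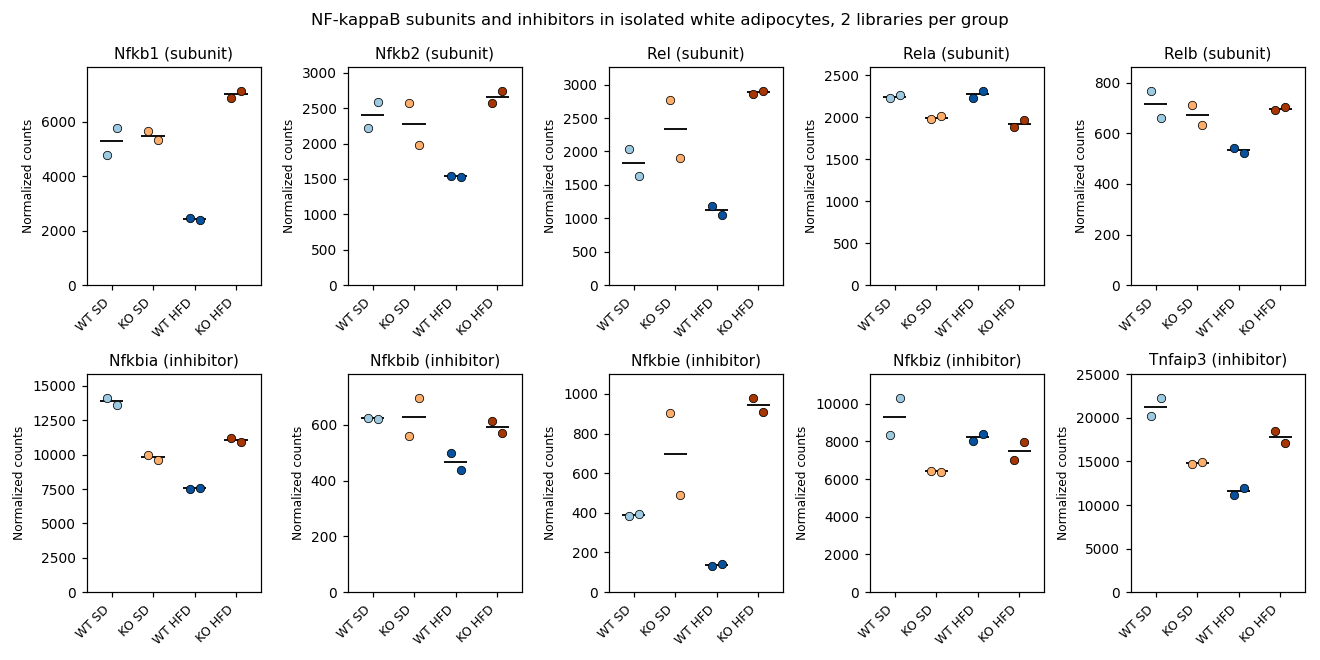
Normalized counts (y axis, linear from 0) of the 10 NF-kappaB genes in each library of the 4 groups (x axis), with a line at the group mean of 2 libraries. In WT HFD, Nfkb1, Nfkb2, Rel, Relb, Nfkbia, Nfkbib, Nfkbie and Tnfaip3 lay below all other libraries, 8 of the 10 genes beside 17.1% of the 18800 genes tested, while Rela stayed between 1886 and 2315 throughout.

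On HFD, KO adipocyte preparations had more mRNA of the subunits Nfkb1, Rel and Nfkb2 and the inhibitors Nfkbie and Tnfaip3 than WT preparations. Macrophage and adipocyte marker sums also differed between these preparations, as given further below, and their part was not tested. Of the 10 genes, 5 rose and 0 fell, whereas 17.1% of the 18800 genes tested rose and 15.1% fell. The median log2 fold change was 0.59 for the 10 genes and 0.09 for all genes tested. To be called, a gene needed an adjusted p no larger than 0.05 together with a log2 fold change of 0.59 or more, up or down.

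Both precursor genes and Rel rose. Nfkb1 (chr3:135584655-135691547, minus strand) had 2451 and 2391 normalized counts in WT HFD and 6876 and 7126 in KO HFD. The groups were far apart, and the difference of 1.53 ± 0.15 (log2 fold change ± SE, adjusted p = 8.5e-06) corresponded to 2.89-fold. Rel (chr11:23736847-23770970, minus strand), the c-Rel subunit prominent in immune cells, had 1188 and 1052 normalized counts in WT HFD and 2864 and 2908 in KO HFD. Its rise was 2.58-fold (log2 1.37 ± 0.19, adjusted p = 1.7e-04), again with no overlap. Nfkb2 (chr19:46304737-46312090, plus strand), the precursor gene of the non-canonical pathway, had 1545 and 1526 in WT HFD and 2570 and 2745 in KO HFD, a rise of 1.73-fold (log2 0.79 ± 0.16, adjusted p = 0.0027). Of its exon bases, 11.58% overlap AC114539.1, which had no row, and 6.52% overlap Psd, both on the opposite strand. Reads on several genes were left out of the counts, so that reads from these bases would be missing if counting ignored strand.

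Rela and Relb did not pass. Rela (chr19:5637483-5648130, plus strand), the main transactivating subunit of the canonical pathway, had 2227 and 2315 in WT HFD and 1886 and 1963 in KO HFD. Every KO library was below both WT libraries, but the log2 difference of -0.24 (95% interval -0.54 to 0.06, adjusted p = 0.20) turned to 0.15 with the same total and to 0.03 after quantile normalization. Relb (chr7:19606217-19629438, minus strand), the partner of p52, had 541 and 524 in WT HFD and 691 and 705 in KO HFD. Here the KO libraries lay above the WT libraries without overlap, with a log2 difference of 0.39 (interval 0.02 to 0.76) that missed the threshold (adjusted p = 0.097).

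Among the inhibitors, Nfkbie showed the largest change of the 10 genes. Nfkbie (chr17:45555716-45563169, plus strand) had 130 and 141 normalized counts in WT HFD and 981 and 907 in KO HFD. This 6.92-fold rise (log2 2.79 ± 0.25, adjusted p = 5.5e-06) stood well outside the spread of either pair. Tnfaip3 (chr10:19000910-19015657, minus strand) had 11190 and 11981 in WT HFD and 18464 and 17126 in KO HFD, a rise of 1.54-fold (log2 0.62 ± 0.15, adjusted p = 0.0082) just above the fold limit. Without KO HFD replicate 1 it was 0.56 and below the fold limit, and without WT HFD replicate 1 or 2 it was 0.57 or 0.67 and missed the threshold (adjusted p = 0.096 and 0.062), as it did with the WT HFD pair averaged (adjusted p = 0.083). Nfkbia (chr12:55489411-55492647, minus strand), the rapid feedback inhibitor, had 7507 and 7595 in WT HFD and 11182 and 10956 in KO HFD. Its difference of 1.47-fold (log2 0.55 ± 0.14, adjusted p = 0.0098) passed the p but not the fold limit, and it was called after scaling to the same total (log2 0.94) or quantile normalization (log2 1.04).

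Nfkbib and Nfkbiz did not pass on HFD. Nfkbib (chr7:28758251-28767512, minus strand), encoding IkappaB beta, had 499 and 437 in WT HFD and 614 and 572 in KO HFD (log2 0.34, interval -0.05 to 0.74, adjusted p = 0.17). Of its exon bases, 14.48% overlap Ccer2 and 1.94% overlap Sirt2 on the opposite strand, and the same limit applies to reads from them. Nfkbiz (chr16:55811375-55838899, minus strand) had 8028 and 8406 in WT HFD and 6999 and 7942 in KO HFD, a log2 difference of -0.14 (interval -0.48 to 0.20, adjusted p = 0.52) that turned to 0.25 with the same total and to 0.32 with quantile normalization. The KO libraries lay below the WT libraries for Nfkbiz and above them for Nfkbib, both by less than the threshold required.

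**Figure D2:**
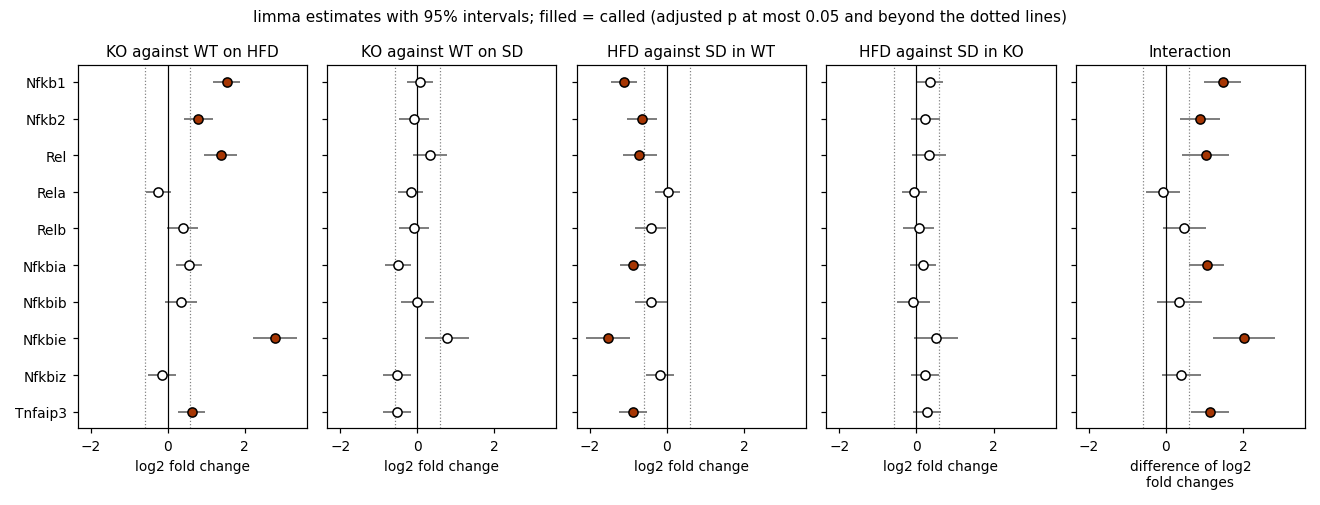
Estimated log2 fold changes (x axis) of the 10 genes (y axis) in the 4 comparisons and the interaction, with 95% intervals from limma as bars, filled points for called genes and dotted lines at the fold limit of 0.59. Filled points appear to the right of 0 on HFD and for the interaction and to the left of 0 for the diet in WT, with none in the remaining 2 panels.

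On SD, none of the 10 genes was called between the genotypes (0 higher, 0 lower, limma), while 3.21% of all genes tested were called higher and 1.5% lower. At an unadjusted p below 0.05 there were 4, of which Nfkbie was higher and Nfkbia, Nfkbiz and Tnfaip3 were lower in KO. Median log2 fold changes were -0.09 for the 10 genes and -0.01 for all genes tested.

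The 3 most abundant inhibitors had lower values in KO on this diet but did not pass. Nfkbia had 14146 and 13650 normalized counts in WT SD and 9983 and 9616 in KO SD (log2 -0.50, interval -0.81 to -0.20, adjusted p = 0.068). Tnfaip3 had 20181 and 22330 in WT SD and 14695 and 14896 in KO SD (log2 -0.52, interval -0.86 to -0.19, adjusted p = 0.085). Nfkbiz had 8320 and 10319 in WT SD and 6449 and 6380 in KO SD (log2 -0.53, interval -0.87 to -0.19, adjusted p = 0.082). For all 3 the KO libraries lay below both WT libraries, and the adjusted p missed the threshold. On the same diet, the summed level of 12 immediate-early genes, which respond to cell isolation and other acute stimuli and were led by Egr1, Jun and Junb, was 215633 and 192310 in WT SD and 98409 and 99199 in KO SD, with 9 of the 12 called lower (1.5% of all genes). The part of these genes in the inhibitor values was not tested.

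Nfkbie went the other way on SD, where WT had 383 and 396 normalized counts and KO had 903 and 488. Both KO libraries were above WT but far apart, and the log2 difference of 0.77 ± 0.25 had an adjusted p of 0.13. Without KO SD replicate 2 it was 1.21 and was called. Rel showed the same imbalance between KO libraries, with 2031 and 1638 in WT SD and 2777 and 1901 in KO SD (log2 0.33, interval -0.08 to 0.74, adjusted p = 0.41). Its KO replicate 2 lay within the WT range. The other genes had overlapping groups or small gaps: Nfkb1 had 4774 and 5763 in WT SD and 5640 and 5330 in KO SD (log2 0.06, interval -0.25 to 0.38), and Nfkb2 had 2218 and 2592 and then 2571 and 1984 (log2 -0.09, interval -0.44 to 0.27). Relb had 768 and 661 in WT SD and 713 and 631 in KO SD, and Nfkbib 626 and 622 and then 560 and 698, both overlapping. Rela had 2225 and 2265 in WT SD and 1974 and 2017 in KO SD, a gap in every library but of -0.17 on the log2 scale (interval -0.47 to 0.13).

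In WT adipocyte preparations, HFD went along with lower mRNA of 6 of the 10 genes. Nfkb1, Nfkb2, Rel, Nfkbia, Nfkbie and Tnfaip3 fell and 0 rose, whereas 9.22% of all genes tested fell and 8.74% rose. Their median log2 fold change was -0.67 over the 10 genes, against -0.08 over all genes tested. This comparison shares its WT HFD libraries with that of the genotypes on HFD, so that the values of both rest on the same low pair.

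Nfkbie was again the gene with the largest change, from 383 and 396 normalized counts in WT SD to 130 and 141 in WT HFD (2.86-fold lower, log2 -1.52 ± 0.25, adjusted p = 0.0025). Nfkb1 went from 4774 and 5763 to 2451 and 2391 (2.17-fold lower, log2 -1.12 ± 0.15, adjusted p = 6.3e-04). Nfkbia went from 14146 and 13650 to 7507 and 7595 (1.84-fold lower, adjusted p = 0.0021). The feedback inhibitor A20 had a fall of like size, with Tnfaip3 going from 20181 and 22330 to 11190 and 11981 (1.83-fold lower, adjusted p = 0.0034). Rel went from 2031 and 1638 to 1188 and 1052 (1.63-fold lower, log2 -0.71 ± 0.19, adjusted p = 0.023). Nfkb2 went from 2218 and 2592 to 1545 and 1526 (1.56-fold lower, log2 -0.64 ± 0.16, adjusted p = 0.018). In each of these 6 genes both WT HFD libraries were below both WT SD libraries.

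The calls of Rel and Nfkb2 for the diet in WT were lost when any of the 4 WT libraries was left out, and that of Tnfaip3 without WT HFD replicate 1, so that 3 genes were called without that library, and 2 when both WT HFD libraries were counted as 1 sample. Immediate-early genes also moved here, with 11 of 12 called lower (9.22% of all genes) and sums of 112227 and 111389 in WT HFD, and their part in the result was not tested. Relb (768 and 661 against 541 and 524) and Nfkbib (626 and 622 against 499 and 437) had lower WT HFD libraries without overlap but did not pass (adjusted p = 0.10 and 0.12), and both were called with the same total (log2 -0.83 each). For Rela the WT HFD values of 2227 and 2315 overlapped the SD values of 2225 and 2265, with a log2 difference of 0.02 (interval -0.28 to 0.32) that was -0.40 with the same total and -0.25 with quantile normalization. Nfkbiz had 8028 and 8406 in WT HFD, against 8320 and 10319 on SD (log2 -0.17, interval -0.51 to 0.16).

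In Ad-Yap/Taz-KO adipocyte preparations, no gene of the 10 was called between HFD and SD (0 higher, 0 lower, limma). Of all genes tested, 0.383% were called higher and 0.691% lower. At an unadjusted p below 0.05 there was 1, Nfkb1, with 5640 and 5330 normalized counts in KO SD and 6876 and 7126 in KO HFD (log2 0.35, interval 0.03 to 0.67, adjusted p = 0.27). Nfkbie had 903 and 488 in KO SD and 981 and 907 in KO HFD (log2 0.51, interval -0.04 to 1.06, adjusted p = 0.36), and was called without KO SD replicate 1 (log2 0.95). Its HFD values were close together and above both SD values, of which the first lay near them. Nfkbia had 9983 and 9616 in KO SD and 11182 and 10956 in KO HFD, and Tnfaip3 14695 and 14896 and then 18464 and 17126, with log2 differences of 0.18 (interval -0.13 to 0.48) and 0.27 (interval -0.07 to 0.60). The log2 differences of the other 6 genes lay between -0.08 (Nfkbib) and 0.33 (Rel), with a median of 0.23 over the 10 genes and of 0.03 over all genes tested.

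The effect of the genotype differed between the diets for 6 of the 10 genes, as tested by the interaction, the log2 fold change of KO against WT on HFD minus that on SD. All 6 values were above 0, when 8.69% of all genes tested were called higher and 8.73% lower. The interaction was 2.02 ± 0.36 for Nfkbie (adjusted p = 0.0058), 1.47 ± 0.21 for Nfkb1 (adjusted p = 0.0027), 1.14 ± 0.22 for Tnfaip3 (adjusted p = 0.0074), 1.06 ± 0.20 for Nfkbia (adjusted p = 0.0072), 1.03 ± 0.27 for Rel (adjusted p = 0.022) and 0.88 ± 0.23 for Nfkb2 (adjusted p = 0.024). In Nfkbia and Tnfaip3 the KO libraries lay below WT on SD and above WT on HFD. Nfkb1 and Nfkb2 had overlapping genotypes on SD and separate ones on HFD, while Nfkbie was above WT on both diets. For Rela the interaction was -0.07 (interval -0.49 to 0.35), and for Relb, Nfkbib and Nfkbiz it was 0.48, 0.34 and 0.39 with adjusted p of 0.19, 0.38 and 0.23. With the same total, Relb (0.91) and Nfkbiz (0.82) were called too, and Nfkbiz (0.82) also with quantile normalization. Counting the WT HFD libraries as 1 sample left 2 of the 6 calls, Nfkb1 and Nfkbie, and leaving out single libraries left 2 to 6, the fewest without WT HFD replicate 1 (2) and replicate 2 (3).

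The makeup of the subunit mRNA pool follows from the same values and is not altered by any scaling that multiplies a whole library by 1 factor. On the per-length scale, Rela made up 34.9% and 34.0% of the 5 subunits in WT SD, 28.9% and 33.7% in KO SD, 46.4% and 48.3% in WT HFD and 26.6% and 26.6% in KO HFD. Rela thus held its largest share in both WT HFD libraries and its smallest in both KO HFD libraries. The share of Nfkb1 was 19.1% and 22.0% in WT SD, 21.0% and 22.7% in KO SD, 13.0% and 12.7% in WT HFD and 24.7% and 24.6% in KO HFD, the reverse order. Rel made up 13.1% and 10.1% of the pool in WT SD, 16.7% and 13.1% in KO SD, 10.2% and 9.0% in WT HFD and 16.6% and 16.2% in KO HFD. Its share in WT SD replicate 2 lay within the WT HFD values and that in KO SD replicate 1 was the highest of the 8 libraries, while Nfkb2 (21.3% to 26.1%) and Relb (7.6% to 9.5%) varied little over the 8 libraries. These shares are given as a description and were not tested. The summed inhibitors per kb were 6.58 and 6.47 times the summed subunits in WT SD, 4.52 and 5.02 times in KO SD, 5.17 and 5.32 times in WT HFD and 4.99 and 4.72 times in KO HFD, highest in both WT SD libraries. Within the inhibitors, the log2 ratio of Nfkbie to Nfkbia per kb was -6.77 and -6.67 in WT HFD and -4.43 and -4.51 in KO HFD, and it spanned -6.13 to -4.39 on SD.

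**Figure D3:**
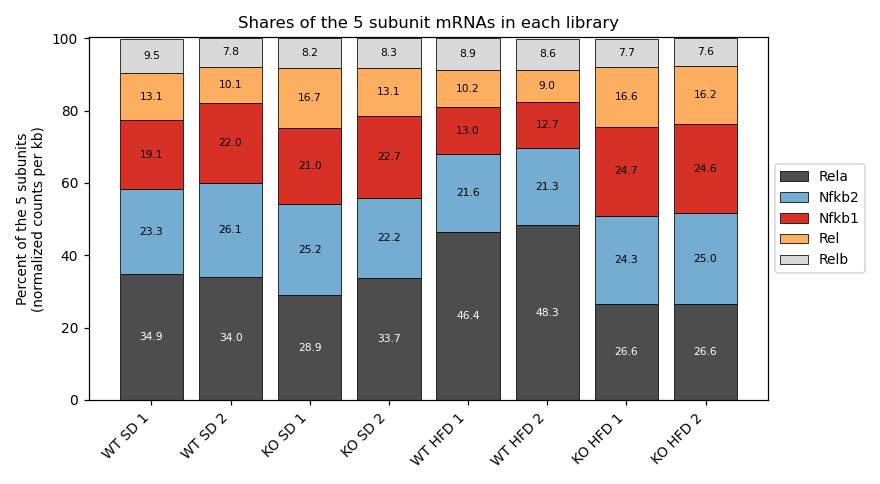
Share of each subunit in the summed normalized counts per kb of the 5 subunits (y axis, percent) in each of the 8 libraries (x axis). The Rela segment takes 46.4% and 48.3% in WT HFD and 26.6% in both KO HFD libraries, and the Nfkb1 segment is narrowest in WT HFD (13.0% and 12.7%).

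The kinases that release NF-kappaB were examined among 37 further genes of the pathway, such as receptors, adaptors and ubiquitin enzymes. On HFD, 10 of the 37 rose and 6 fell in KO, with a median log2 fold change of 0.10, beside 17.1% higher, 15.1% lower and a median of 0.09 for all genes tested. Of the IKK complex, the catalytic subunit Ikbkb rose from 746 and 836 normalized counts in WT HFD to 1450 and 1236 in KO HFD (log2 0.76 ± 0.16, adjusted p = 0.0031), a call lost without WT HFD replicate 1 (0.65 to 0.88 over the libraries left out). The regulatory subunit Ikbkg (NEMO) fell from 1080 and 1196 to 547 and 372 (log2 -1.33 ± 0.22, adjusted p = 5.6e-04). Chuk, encoding IKK alpha, had 969 and 937 in WT HFD and 744 and 808 in KO HFD and did not pass (log2 -0.30, adjusted p = 0.26, and 0.09 with the same total). One gene of the complex thus rose, one fell and one did not pass. The IKK-related kinase Ikbke rose from 117 and 103 to 683 and 701 (log2 2.65 ± 0.23, adjusted p = 3.4e-06).

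Other genes of the pathway list went in both directions on HFD or did not pass. Nfkbid, encoding the nuclear IkappaB NS, had 92 and 74 normalized counts in WT HFD and 1025 and 766 in KO HFD (log2 3.41 ± 0.27, adjusted p = 2.0e-06). Bcl3, another nuclear IkappaB protein, had 518 and 582 and then 740 and 776 (log2 0.46, adjusted p = 0.064), and was called with the same total (log2 0.85, adjusted p = 0.0067). The TNF receptor Tnfrsf1b went from 356 and 373 to 3665 and 2915 (log2 3.16, adjusted p = 4.7e-07) and the co-stimulatory receptor Cd40 from 39 and 64 to 566 and 488 (log2 3.37, adjusted p = 9.8e-06). Both receptors are prominent on immune cells. The adaptor Traf5 rose from 103 and 112 to 344 and 307 (log2 1.59), whereas the TAK1-binding protein gene Tab3 fell from 982 and 1113 to 434 and 471 (log2 -1.21) and the ubiquitin ligase gene Birc2 from 1520 and 1366 to 611 and 799 (log2 -1.04), with adjusted p of 8.1e-04, 4.3e-04 and 0.0012.

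In the other comparisons of the pathway list, 4 of 37 genes rose and 1 fell in KO on SD (3.21% and 1.5% of all genes), with Tnfrsf1b (651 and 659 in WT, 2967 and 1823 in KO, log2 1.83), Cd40 (log2 1.53) and Traf5 (log2 1.44) as the called genes of largest change (adjusted p of 2.4e-04, 0.016 and 0.0079). The call of Cd40 was lost without either WT SD library or KO SD replicate 1 (1.19 to 1.87) and that of Traf5 without either WT SD library (1.38 to 1.49). With HFD in WT, 7 rose and 6 fell (8.74% and 9.22% of all genes). Nfkbid fell from 301 and 226 normalized counts to 92 and 74 (log2 -1.65, adjusted p = 0.0024) and Ikbke from 234 and 264 to 117 and 103 (log2 -1.17, adjusted p = 0.0053), while Ikbkg rose from 545 and 607 to 1080 and 1196 (log2 0.98, adjusted p = 0.0097), a value of 0.57 below the fold limit with the same total. Bcl3 fell as well, from 1158 and 985 to 518 and 582 (log2 -0.96, adjusted p = 0.0047), though not without WT SD replicate 1 or WT HFD replicate 1 (-1.08 to -0.84). Nfkbid and Bcl3 thus fell in WT, like the inhibitors Nfkbia, Nfkbie and Tnfaip3. Leaving out single WT libraries lost the calls of Nfkbid (without WT SD replicate 1, -1.85 to -1.44 over the libraries left out), Ikbke (without WT HFD replicate 2) and Ikbkg (without WT SD replicate 1 or either WT HFD library, 0.90 to 1.06). With HFD in KO, 0 of 37 passed with limma (0.383% and 0.691% of all genes), and 12 had an unadjusted p below 0.05. The interaction called 5 higher and 7 lower (8.69% and 8.73% of all genes), led by Nfkbid (2.42 ± 0.39), Ikbke (1.98 ± 0.32) and Cd40 (1.83 ± 0.46), with adjusted p of 0.0038, 0.004 and 0.02, the last lost without WT SD replicate 1, KO SD replicate 2, WT HFD replicate 1 or KO HFD replicate 2 (1.48 to 2.18).

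A list of 30 genes known to be induced by NF-kappaB, of which 28 passed the filter, was compared in the same way. The list was chosen with earlier results of these data known, so its counts are a description and not an independent comparison. In KO on HFD, 15 of the 28 rose and 1 fell, with a median log2 fold change of 0.83, beside 17.1% higher, 15.1% lower and a median of 0.09 for all genes tested. The cytokine genes Tnf (429 and 504 normalized counts in WT HFD, 7136 and 5139 in KO HFD, log2 3.70 ± 0.23) and Il1b (88 and 126, then 1951 and 1469, log2 3.99 ± 0.35) and the interleukin-1 receptor antagonist Il1rn (35 and 82, then 1708 and 1396, log2 4.82 ± 0.35) were among the largest rises. The chemokine gene Cxcl2 went from 942 and 1007 to 8899 and 7751 (log2 3.09) and Cd83, a surface protein of activated immune cells, from 228 and 281 to 5349 and 4300 (log2 4.24). Their adjusted p lay between 6.5e-08 (Cd83) and 4.1e-06 (Il1b). Traf1 (log2 2.70), the prostaglandin synthase gene Ptgs2 (log2 2.18) and the adhesion molecule gene Icam1 (2048 and 2152, then 7973 and 9025, log2 2.01) rose with adjusted p of 1.8e-04, 1.8e-04 and 1.7e-04.

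The rest of the target list did not move as a block. The log2 fold changes of the 12 genes not called on HFD ran from -0.37 to 0.91, and the acute-phase gene Saa3, named here after its values were seen, was the 1 gene that fell (82 and 86 in WT HFD, 21 and 24 in KO HFD). On SD, 7 rose and 1 fell in KO (3.21% and 1.5% of all genes), with Il1rn (84 and 91 in WT, 1159 and 728 in KO, log2 3.38), Tnf (680 and 688, then 4600 and 2791, log2 2.39) and Ccl5 (23 and 26, then 134 and 129, log2 2.38) at adjusted p of 8.8e-05, 4.8e-05 and 0.0018. With HFD in WT, 0 rose and 10 fell (8.74% and 9.22% of all genes), among them Cxcl10 (3986 and 2345 to 937 and 1128, log2 -1.57), Irf1 (17033 and 13257 to 5293 and 5338, log2 -1.50) and Nos2 (log2 -1.54), with adjusted p of 0.003, 2.8e-04 and 0.024. Nos2 was no longer called without any one of the 4 WT libraries (-1.87 to -1.21) nor Cxcl10 without WT SD replicate 1 (-1.95 to -1.19). In KO only Il1b (log2 1.83, adjusted p = 0.031) and Cd83 (log2 1.04, adjusted p = 0.043) passed with HFD, 2 of 28 against 0.383% called higher among all genes, and both calls were lost in 7 of the 8 fits that left out 1 library (1.29 to 2.37 and 0.72 to 1.35), all but the one without KO SD replicate 1. With the replicate block, Cd83 missed the threshold as well (adjusted p = 0.075). The interaction called 10 higher and 2 lower (8.69% and 8.73% of all genes), with Saa3 at -3.30 ± 0.63 and Cd83 and Il1b at 1.88 ± 0.31 and 1.82 ± 0.50 (adjusted p of 0.0072, 0.0041 and 0.027), of which the call of Il1b was lost in 6 of the 8 fits that left out 1 library (1.28 to 2.36), all but those without WT SD replicate 2 or KO SD replicate 1.

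**Figure D4:**
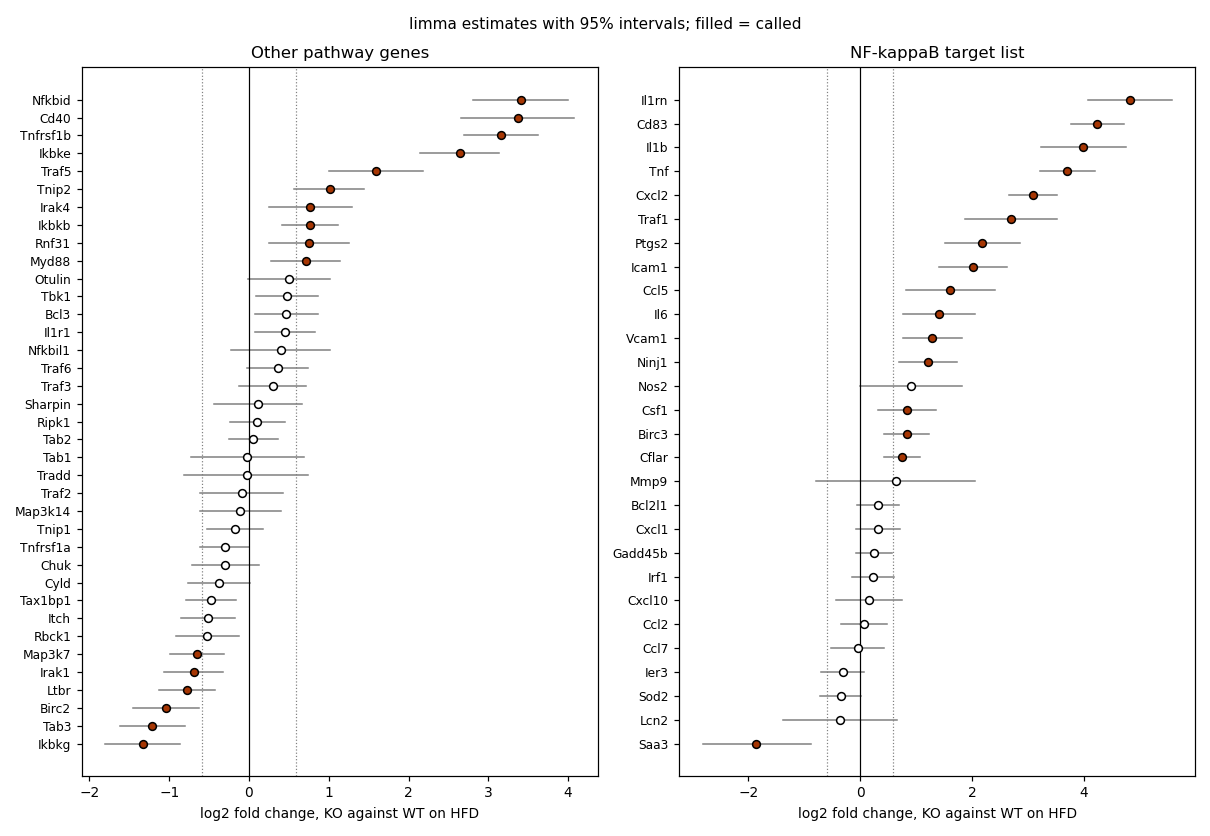
Estimated log2 fold changes of KO against WT on HFD (x axis) for 37 further pathway genes and 28 NF-kappaB target genes (y axes), with 95% intervals as bars, filled points for called genes and dotted lines at the fold limit of 0.59. Called genes lie on both sides of 0 in the pathway list (10 and 6) and almost all to the right of 0 in the target list (15 and 1).

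Macrophage markers moved with these results. The summed level of 9 macrophage markers, led by Lyz2, Mrc1 and Csf1r, was 4783 and 4717 normalized counts in WT SD, 28560 and 15789 in KO SD, 2185 and 2236 in WT HFD and 30769 and 28346 in KO HFD. Lyz2 alone had 625 and 578 in WT HFD and 10872 and 9376 in KO HFD. In KO, 9 of 9 markers were called higher on HFD (17.1% of all genes tested, median log2 fold change of the markers 4.07) and 8 of 9 on SD (3.21% of all genes, median 2.05). With HFD in WT, 8 of 9 fell (9.22% of all genes), and none of them was at 0 in all libraries of a group. The KO SD library with the higher macrophage sum, replicate 1, also had more Nfkbie (903 against 488) and Rel (2777 against 1901) than replicate 2. The same library had the higher endothelial (20475 against 11406) and fibroblast and progenitor sums (50222 against 31884). Between the genotypes on SD, where the macrophage sum also differed, Nfkb1 and Nfkb2 overlapped and Nfkbia and Tnfaip3 had lower values in KO. Of the adipocyte markers, 7 of 8 fell in KO on HFD (15.1% of all genes), with sums of 332487 and 325697 in WT HFD and 158792 and 78957 in KO HFD, and 5 of 7 markers of fibroblasts and progenitors rose (17.1% of all genes). The immediate-early sums on HFD were 112227 and 111389 in WT and 95819 and 102784 in KO, with 2 of 12 genes called higher and 2 lower (17.1% and 15.1% of all genes). The part of these cell types and genes in the NF-kappaB values was not tested.

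**Figure D5:**
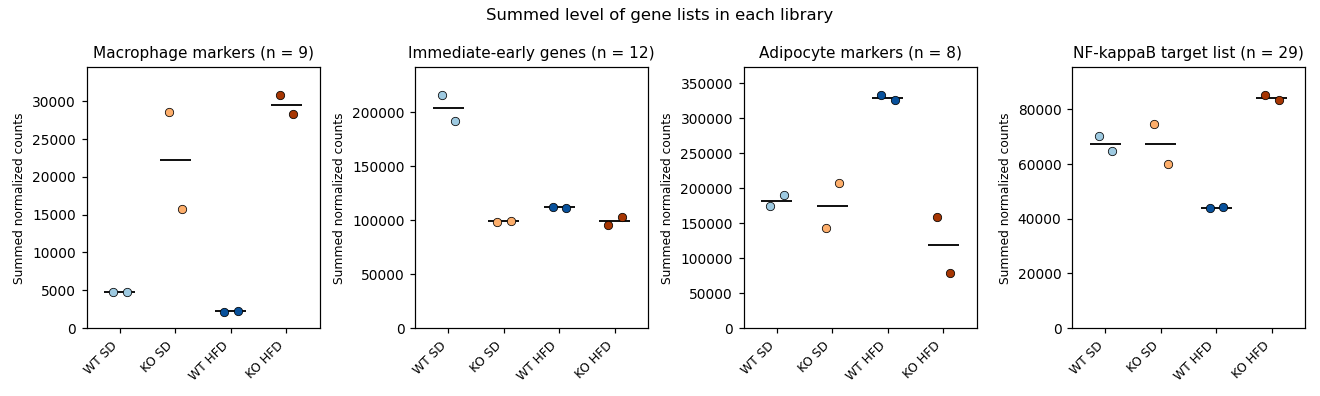
Summed normalized counts (y axes, linear from 0) of macrophage markers, immediate-early genes, adipocyte markers and the NF-kappaB target list in each library of the 4 groups (x axes), with a line at the group mean. Macrophage sums range from 15789 to 30769 in the KO libraries and from 2185 to 4783 in the WT libraries, and immediate-early sums are highest in WT SD.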

How the data were processed

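Total RNA of isolated epididymal white adipocytes was depleted of ribosomal RNA and sequenced as single-end reads from 20 ng input. The authors trimmed reads with Reaper, aligned them to mm10 (GRCm38) with STAR 2.5.2b and counted exon reads per gene with featureCounts 1.5.1, leaving out reads on several genes or places. The strand setting is not given in the sources used here. They then normalized with DESeq2 1.14.1. The values the authors deposited are treated as a score, since each gene's count was divided by its library's size factor and then rounded, and are called normalized counts here. Whole reads could not be recovered, so DESeq2 and edgeR were not run. The value of 1 read was estimated at 0.7953 to 1.135 per library from which whole numbers occur. Precision covers the spread between 2 libraries per group, which the labels number as repeats and the study's methods describe as biological replicates.

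Genes with a mean of at least 5 (18800 of 30387) were fitted with limma 3.58.1 (trended eBayes, R 4.3.3) after adding a pseudocount of 1 and taking log2. Fold changes are on this scale. One fit held the 4 group means (4 residual and 8.59 prior degrees of freedom), and p-values were Benjamini-Hochberg adjusted over all genes. The fit was tested on simulated data. Levels per kb used the summed exon length of GENCODE vM21. Promoter windows and motif searches used the RefSeq table. The 10 genes are all described. Of the lists, up to 8 called genes with a mean of at least 50 and the largest change are named for KO against WT on HFD and up to 3 elsewhere, besides Chuk, Ikbkb, Ikbkg, Bcl3 and Nfkbid. The members and lists were chosen with earlier results of these data known. Alternatives are given in the closing section. Tables and figures were made with Python 3.11.15, numpy 2.4.6, pandas 2.3.3 and matplotlib 3.10.9.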

Additional observations from a re-analysis of the deposited data

Results flagged for a closer look

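The knockout's effect depended on the diet for 6 of the 10 genes by the interaction test, where 8.69% of all genes tested were called higher and 8.73% lower. The interaction is given as the log2 fold change on HFD minus that on SD. It was 2.02 for Nfkbie, 1.47 for Nfkb1, 1.14 for Tnfaip3, 1.06 for Nfkbia, 1.03 for Rel and 0.88 for Nfkb2. The calls of Rel and Nfkb2 were lost without a filter. With single libraries left out, their values ranged from 0.76 to 1.31 and from 0.69 to 1.06. For Nfkbia and Tnfaip3 the KO libraries lay below WT on SD and above WT on HFD, and for the other 4 the distance between the genotypes was larger on HFD. The same 6 genes were the ones that fell in WT with HFD, and both results use the WT HFD libraries. The sums of macrophage markers and immediate-early genes also differed between these groups, and their part in the 6 values was not tested.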

How the results depend on the processing

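Over the 10 genes and 5 contrasts, no call changed with a pseudocount of 0.1 or 8, a mean of at least 50, robust eBayes, a fit of only the groups compared (without the interaction, which needs all 4 groups) or the replicate block, under which 5 genes were called for KO against WT on HFD, as in the fit without it. Of the other named genes, Cd83 lost its call for HFD against SD in KO under the replicate block, a pseudocount of 0.1, a mean of at least 50, no filter, the 2-group fit and with the WT HFD pair averaged (adjusted p 0.051 to 0.27), and Il1b lost its own under 4 of these 6 (0.062 to 0.2). Averaging the WT HFD pair also lost the calls for the diet in WT of Ikbke (0.059), Bcl3 (0.063), Ikbkg (0.095) and Nos2 (0.13) and for the interaction of Cd40 (0.066) and Il1b (0.093). Without a filter, Cd40 lost KO against WT on SD (0.08), Nos2 the diet in WT (0.085) and Cd40 and Il1b the interaction (0.071 and 0.11). The 2-group fit lost Cd40 and Traf5 for KO against WT on SD (0.06 and 0.075), quantile normalization Nos2 for the diet in WT (0.056), and the same total Ikbkg for the diet in WT (log2 0.57). The labels do not say that a replicate number marks a shared batch or litter, and deviations of same-numbered libraries correlated between -0.30 and 0.11 over group pairs. Without a filter, the calls of Nfkb2 and Rel were lost for the diet in WT and for the interaction.

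Scaling to the same total raised the members called for KO against WT on HFD to 8, adding Relb, Nfkbia and Nfkbib, and gave 8 for the diet in WT (adding Relb and Nfkbib) and 8 for the interaction (adding Relb and Nfkbiz). Under that scaling 24.6% of all genes tested were called higher for KO against WT on HFD (17.1% as reported), 19.0% lower for the diet in WT (9.22%) and 13.9% higher for the interaction (8.69%). Quantile normalization gave 6 on HFD (adding Nfkbia) and 7 for the interaction (adding Nfkbiz). Of all genes tested, 13.9% and 6.61% were then called higher in these 2 comparisons. With the WT HFD libraries as 1 sample, 4 members were called for KO against WT on HFD (without Tnfaip3), 2 for the diet in WT and 2 for the interaction. Leaving out each library gave 4 to 5 members called for KO against WT on HFD, 0 to 1 for KO against WT on SD, 3 to 6 for the diet in WT, 0 to 1 for the diet in KO and 2 to 6 for the interaction. The cause of these changes was not tested.

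The values that changed sign were not called in the fit reported. With the same total and with quantile normalization, Rela turned to 0.15 and 0.03 for KO against WT on HFD, to -0.40 and -0.25 for the diet in WT and to 0.36 and 0.24 for the interaction, Nfkbiz to 0.25 and 0.32 for KO against WT on HFD, and Nfkbib to -0.04 and -0.05 for KO against WT on SD. Chuk turned to 0.09 with the same total on HFD. With single libraries left out, the ranges on SD were -0.07 to 0.20 for Nfkb1, -0.27 to 0.10 for Nfkb2, -0.20 to 0.02 for Relb and -0.16 to 0.16 for Nfkbib. They were -0.03 to 0.15 for Relb and -0.24 to 0.08 for Nfkbib for the diet in KO, and -0.01 to 0.04 for Rela for the diet in WT.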

Other observations

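Markers of further cell types were summed in the same libraries. The 6 endothelial markers, led by Cdh5, Pecam1 and Kdr, summed to 27002 and 22053 normalized counts in WT SD, 20475 and 11406 in KO SD, 13738 and 14131 in WT HFD and 17669 and 27401 in KO HFD, so that both WT HFD libraries were below both KO HFD libraries. Of these, 1 of 6 was called higher in KO on HFD (17.1% of all genes tested), 3 fell in WT with HFD (9.22% of all genes) and 5 were called higher in the interaction (8.69% of all genes). The 7 markers of fibroblasts and progenitors, led by Col3a1, Col1a1 and Dcn, summed to 34397 and 28465 in WT SD, 50222 and 31884 in KO SD, 21218 and 21586 in WT HFD and 68291 and 76488 in KO HFD. They had 6 of 7 called higher in the interaction (8.69% of all genes) and 2 of 7 called higher with HFD in KO (0.383% of all genes).

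Other immune cells were represented at low levels. The 10 lymphocyte markers, led by Cd79a, Cd2 and Cd79b, summed to between 22 and 135 normalized counts per library, lowest in WT HFD (28 and 22, against 102 and 127 in KO HFD). Of the 5 that passed the filter, Cd79a and Cd2 were called higher in KO on HFD, beside 17.1% of all genes tested. The 6 neutrophil markers, led by Csf3r, S100a9 and S100a8, summed to between 11 and 80, again lowest in WT HFD (12 and 11, against 69 and 61 in KO HFD). Csf3r, with a mean of 33.5, was the 1 of 3 tested that was called higher in KO on HFD (17.1% of all genes). S100a8 and S100a9 did not pass, with log2 differences of -2.29 and 1.95. The 6 dendritic cell markers, led by Zbtb46, Clec9a and Xcr1, summed to 488 to 893, of which Zbtb46 alone had 406 to 763. They had 0 calls in any comparison, when 17.1% of all genes were called higher and 15.1% lower in KO on HFD. The 5 mesothelial markers, led by Wt1, Upk3b and Lrrn4, summed to 167 to 673. The highest sum was in KO HFD replicate 2, the library that also had the lowest adipocyte sum, and Wt1 made up 531 of it. In KO on HFD, Wt1 was called higher (log2 3) and Msln lower (log2 -3.37), beside 17.1% higher and 15.1% lower of all genes. Upk3b, Krt19 and Lrrn4 were not called and had log2 differences below 0 (-0.61, -1.68 and -2.26).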
